A study of Mus musculus with 8 samples.

Results

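The clustered protocadherins are the genes whose symbols begin with Pcdha, Pcdhac, Pcdhb, Pcdhga, Pcdhgb or Pcdhgc followed by a number. By this rule on the symbol alone, 55 of the 29442 genes in the count table were taken, all of them on mouse chromosome 18 in RefSeq. They were 12 genes of the alpha cluster, 22 of the beta cluster and 21 of the gamma cluster. Within the alpha cluster, 10 were alternate members and 2, Pcdhac1 and Pcdhac2, were C-type members. The gamma cluster held 12 members of type A, 6 of type B and 3 of the C-type, Pcdhgc3, Pcdhgc4 and Pcdhgc5. Pcdha4, Pcdha7 and Pcdhgb8 were not analysed here. No sequences or coordinates of these genes are given.

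RNA was sequenced from the hippocampus of 8 female C57BL/6 J mice that carried no transgene or deletion. The methods give 6 to 8 weeks as the age of the mice used, and do not state the age at dissection after treatment. They name the ventral hippocampus as the source of the RNA. The libraries HipR3, HipR4, HipR7 and HipR11 were labelled DHEA (dehydroepiandrosterone, an adrenal androgen precursor). The mice of this group were injected subcutaneously with 30 mg/kg of it per day for 21 days, while those of HipR5, HipR9, HipR10 and HipR16 received the vehicle, sesame oil. The comparison asks which hippocampal transcripts differ after chronic DHEA in mice that had also been through behavioural tests. Both groups are called by their deposited treatment labels. The signs in the study's own table of differentially expressed genes are the reverse of those that these labels give, so every direction stated here would turn if the labels were exchanged. Total counts on genes ran from 35748416 to 38038361 in the DHEA libraries and from 31483772 to 35418297 in the sesame oil libraries. A count of 3 in a library therefore corresponded to at most 0.0953 CPM (counts scaled to the library total), a limit that covers counting error only.

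HipR3 and HipR4, both labelled DHEA, stood apart from the other libraries. On the first principal component of the 16813 genes whose mean count reached 10, which held 33.4% of the variance, their scores were 21.8 and 35.6. The scores of the remaining 6 libraries lay between -12.7 and -3.62. Values that changed most when they were left out are given with and without them. All 10 neuronal markers examined were detected, with Snap25, a synaptic vesicle fusion protein, the most abundant of them.

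Clustered protocadherins are cell surface adhesion proteins of the cadherin superfamily. A neuron switches on a few of the alternate promoters largely at random, and the proteins on its membrane recognise the same combination on another membrane, which lets branches of the same neuron avoid each other. The C-type members are expressed more uniformly. Each alpha and each gamma transcript joins a variable first exon, which encodes the extracellular and transmembrane parts, to constant exons shared by its cluster, whereas a beta gene consists of its own exon only. Bulk RNA sums over all cells, so that fewer cells of a type and less RNA per cell cannot be told apart.

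The C-type members Pcdhgc5 and Pcdhgc3 were the most highly expressed clustered protocadherins in 8 of 8 libraries. Levels between genes are compared as FPKM (counts scaled to the library total and to the length of the gene), the mean over the 8 libraries. Pcdhgc5, which is known to bind GABA-A receptors, reached 15.3 FPKM, with values from 12.5 to 16.4. Pcdhgc3, which is known to promote dendrite arborisation through an effect on Wnt signalling, reached 13.6 FPKM, with values from 12.7 to 15.1. Pcdhgc5 exceeded Pcdhgc3 in 7 of 8 libraries, by a ratio of the means of 1.12 (two-sided exact permutation test over sign changes, p = 0.0391). Pcdhgc4, on which the survival of many neurons depends, had 1.52 ± 0.278 FPKM (SD, n = 8), a level below Pcdhgc5 by a ratio of 10.02.

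By FPKM, the next members in order were Pcdhga11 with 4.75 FPKM (3.76 to 5.47), Pcdhac2 with 4.45 FPKM (3.89 to 5.60), Pcdhb17 with 4.08 FPKM (3.45 to 4.45) and Pcdhb9 with 3.98 FPKM (3.41 to 4.64). The ranges of these 4 neighbours overlapped over the libraries. All 4 lay below every value of Pcdhgc3 and Pcdhgc5.

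The highest alpha member by far was Pcdhac2, which is required for the even spacing of serotonergic axons. Pcdhac2 exceeded Pcdhac1, the C-type gene before it, by a ratio of 10.4, and Pcdhac1 had 0.428 ± 0.0993 FPKM (SD, n = 8). The alternate alpha members had a median of 0.360 FPKM. The highest of them were Pcdha12 with 0.827 FPKM and Pcdha5 with 0.600 FPKM, and their errors between libraries were 0.194 and 0.104 (SD, n = 8). Pcdha6 was the lowest member of all. It had 1 count in HipR4 and 0 counts in the other 7 libraries, so that it was not detectable at this depth.

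The beta members were more even, with a median of 1.61 FPKM and 17 of 22 members at 1 FPKM or above. The first 8 beta genes in chromosomal order had a median of 0.987 FPKM (0.0447 to 2.30), against 1.91 FPKM (0.826 to 4.08) for the last 14. The lowest was Pcdhb1, the first gene of the cluster, with 1 to 9 counts per library. Its level of 0.0447 FPKM stood below that of the other 21 beta members.

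The gamma A members had a median of 1.72 FPKM and the gamma B members a median of 1.44 FPKM. After Pcdhga11, the highest gamma A member was Pcdhga3 with 2.76 ± 0.505 FPKM (SD, n = 8), and the lowest was Pcdhga1 with 1.29 ± 0.343 FPKM. Among the gamma B members, Pcdhgb6 was highest with 2.40 ± 0.221 FPKM, followed by Pcdhgb1 with 1.501 ± 0.256 FPKM, and Pcdhgb4 was lowest with 0.776 ± 0.143 FPKM. Of the 55 members, 38 had a mean of at least 1 FPKM, 1 in the alpha, 17 in the beta and 20 in the gamma cluster.

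**Figure D1:**
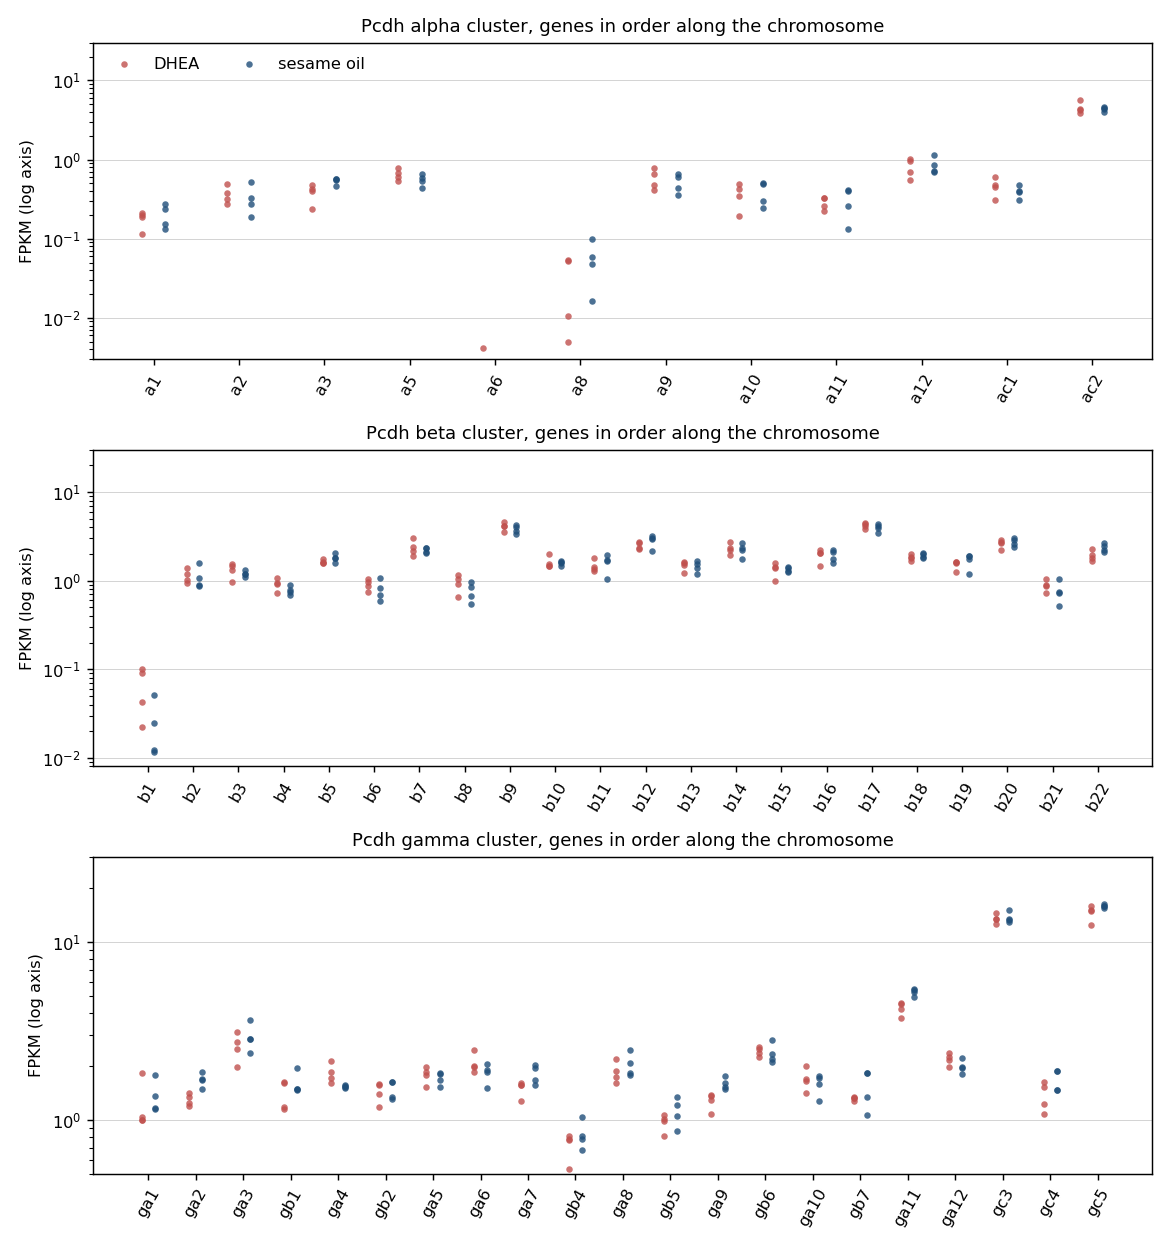
Deposited FPKM (vertical log axis) of each clustered protocadherin gene in each library, with genes in chromosomal order in the alpha, beta and gamma clusters; each point is a DHEA (red) or sesame oil (blue) library, and values of 0 are not drawn. Pcdhgc3 and Pcdhgc5 lie between 12.5 and 16.4 FPKM, Pcdhac2 stands out in the alpha cluster, and Pcdha6, Pcdha8 and Pcdhb1 lie at the bottom.

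The length behind these FPKM differs between the clusters. It was between 5242 and 6613 bases for alpha members and between 4629 and 5080 bases for gamma members, while their first exons in GENCODE span 2346 to 3028 and 2542 to 2961 bases. The shared constant exons are thus part of the length. Whether reads on them were counted, and for which member, cannot be read from the counts. By FPKM, the clusters summed to 8.56 (alpha), 39.0 (beta) and 63.5 (gamma). Scaled to kilobases of the first exon instead, for the 54 members with such an exon in the annotation, the sums were 16.5, 33.7 and 114.5 CPM per kilobase. The order of the clusters was the same on both scales, but the ratio of gamma to beta was not. Beta lengths differed between the scales as well, with 2340 to 5271 bases behind the FPKM and 2588 to 8695 bases in GENCODE. For Pcdhb17 they were 3270 and 4660 bases. Per kilobase of the first exon, Pcdhgc5 (27.4 CPM), Pcdhgc3 (24.9), Pcdhga11 (8.49) and Pcdhac2 (8.41) were again the highest. Pcdhga3 (4.97) and Pcdhgb6 (4.37) then stood above Pcdhb9 (3.98) and Pcdhb17 (2.87).

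Some first exons share sequence with transcripts of other genes, so that reads can be split between genes. The share of 50-base windows of the first exon that also occur in a transcript of another gene was 10.2% to 33.6% for the 9 alternate alpha members that the annotation gives, and 0% for both C-type alpha members. The median was 4.46% in the beta cluster and 0.601% in the gamma cluster. In the gamma cluster, Pcdhga4 shared 39.5% of its windows, mostly with transcripts annotated to Pcdhgb1. The first exon of Pcdhgb1 itself shared 16.85%, mostly with Pcdhgb2. The gamma B members Pcdhgb1, Pcdhgb2, Pcdhgb4, Pcdhgb5 and Pcdhgb6 shared between 10.4% and 17.9%, mostly with each other. For Pcdhga11, Pcdhga2 and Pcdhga9 the share was 0%, 0.317% and 3.83%. Counts of the alternate alpha members, of Pcdhga4 and of these 5 gamma B members may therefore be uncertain. The windows are shorter than the sequenced reads, so a shared window does not by itself make a read ambiguous. The measure also leaves out the shared constant exons, which concern every alpha and gamma member. The span of a gene on the opposite strand overlaps the first exon in 3 alpha, 1 beta and 9 gamma members. Among them are Pcdhga11, Pcdhga1, Pcdhgb4 and Pcdhgc3. Whether exons of the opposite genes lie there was not examined. Since the strand setting of the counting is not given, any reads of Gm26672 over the first exon of Pcdhga11 could not be told from those of Pcdhga11.

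Together, the 55 members received 134933 counts over the 8 libraries. The gamma cluster took 62.0% of them, the beta cluster 28.2% and the alpha cluster 9.81%. The 3 C-type gamma genes alone took 29.7%, and the 2 C-type alpha genes 5.75%, more than the 4.05% of the 10 alternate alpha genes. The rank order of the members was almost the same in both groups, with a Spearman correlation of 0.972 between the group means of FPKM over the 55 genes (a description across genes, which are not independent replicates).

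The summed level of each cluster did not separate the groups. CPM here and below, and the CPM per kilobase of the first exon above, are TMM-normalized. The summed gamma level was 306, 277, 299 and 288 CPM in HipR3, HipR4, HipR7 and HipR11 and 309, 315, 303 and 297 CPM in HipR5, HipR9, HipR10 and HipR16. HipR4 was lowest and HipR9 highest, and the groups overlapped. The group means were 293 ± 12.6 CPM in the DHEA libraries and 306 ± 7.78 CPM in the sesame oil libraries (SD, n = 4 each), a log2 ratio of -0.07. This ratio was -0.04 without HipR4.

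The summed beta level was 149.6, 127, 137 and 136 CPM in the DHEA libraries and 126, 141, 135 and 137 CPM in the sesame oil libraries, in the same order of libraries. Its means of 138 ± 9.28 and 135 ± 6.18 CPM gave a log2 ratio of 0.03, which was -0.01 without HipR3 and -0.0016 without HipR5. The highest beta sum was that of HipR3 and the lowest that of HipR5, with full overlap of the groups. The summed alpha level was 58.4, 46.8, 42.7 and 44.6 CPM against 46.7, 43.7, 46.2 and 49.4 CPM. HipR3 stood above the other 7 libraries. The means of 48.1 ± 7.08 and 46.5 ± 2.34 CPM gave a log2 ratio of 0.05, which became -0.06 without HipR3 and -0.09 without HipR3 and HipR4. HipR3 also held the highest value for 11 of the 55 members, and HipR4 the lowest value for 12.

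**Figure D2:**
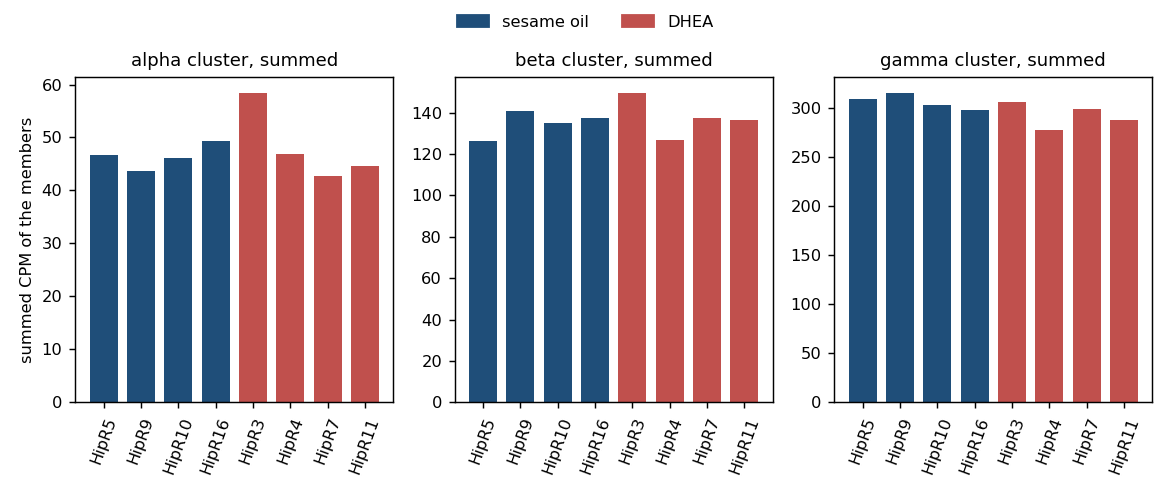
Summed CPM (vertical axis, from 0) of the members of the alpha, beta and gamma clusters in each of the 8 libraries; each bar is a sesame oil (blue) or DHEA (red) library. The groups overlap in all 3 clusters, and HipR3 has the highest alpha sum, 58.4 CPM.

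Gene by gene, few clustered protocadherins differed between the groups, and the differences were small. In edgeR's quasi-likelihood test, 3 of the 55 members had an unadjusted p under 0.05, Pcdhga4 being higher and Pcdhga2 and Pcdhga11 lower in the DHEA libraries. The share among all 27612 genes tested was 9.31% (4.82% higher, 4.49% lower), and 13.1% (6.85% higher, 6.26% lower) among the 16813 genes whose mean count reached 10, as it did in 52 of the 55 members. The difference between the members' share and that background was not tested. After Benjamini-Hochberg adjustment of the edgeR test, 0 members and 0% of all genes passed 0.05, and the lowest adjusted p of any member was 0.339. DESeq2 gave 5 members with an unadjusted p under 0.05, the same 3 with Pcdha3 and Pcdhga9, both lower, beside 8.22% of all genes. Among the members to which DESeq2 gave an adjusted p, 0 had one under 0.05, beside 1.21% of all genes that received one. In edgeR without HipR3 and HipR4, 5 members had an unadjusted p under 0.05, beside 7.89% of all genes, and 0 an adjusted p under 0.05, beside 0.0037%. The thresholds used with these data also ask for a change of 2 times or more in either direction beside an unadjusted p under 0.05. In edgeR, 0 of the 55 members met both, while 1.6% of all genes tested and 0.446% of those with a mean count from 10 upwards did.

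The clusters had medians on either side of 0. Over the 55 members the median log2 fold change was 0.02 (28 above 0 and 27 below), against 0.01 over all genes tested (14141 above 0 and 13471 below). It was 0.02 for the alpha cluster (6 above, 6 below), 0.06 for the beta cluster (15 above, 7 below) and -0.14 for the gamma cluster (7 above, 14 below). Within the gamma cluster the medians were -0.13 for type A, -0.17 for type B and -0.10 for the C-type. Among members whose mean count reached 10, log2 fold changes ran from -0.45 to 0.27 in the alpha, from -0.27 to 0.35 in the beta and from -0.33 to 0.28 in the gamma cluster. Their standard errors (SE) ran from 0.11 to 0.34, from 0.11 to 0.26 and from 0.07 to 0.20. Without HipR3 and HipR4, the medians of the 3 clusters were -0.10, 0.09 and -0.07.

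**Figure D3:**
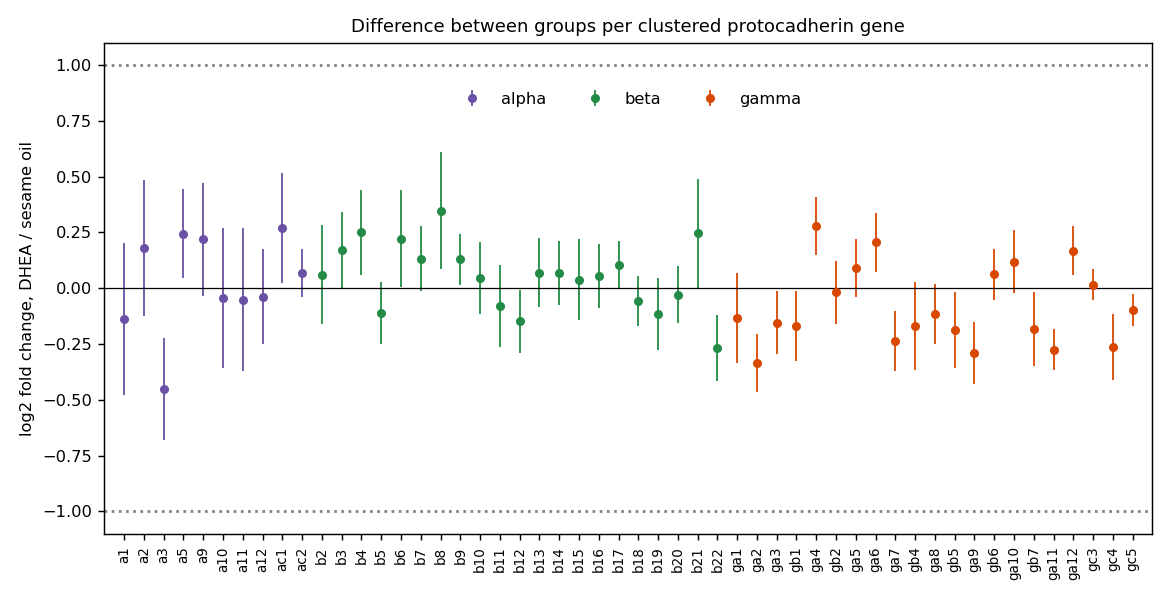
Log2 fold change (DHEA against sesame oil libraries, vertical axis) with its standard error (bars) for the 52 clustered protocadherin genes whose mean count reached 10, in chromosomal order and coloured by cluster; dotted lines mark a fold change of 2 in either direction. All values lie between -0.45 and 0.35, and 14 of the 21 gamma genes lie below 0.

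In 4 members, all of gamma type A, the groups did not overlap, with DHEA higher in 1 and lower in 3. The share of all genes tested without overlap was 5.04% (2.42% higher, 2.62% lower), and 7.17% (3.63% higher, 3.53% lower) where the mean count reached 10. The proteins of type A and type B differ in their extracellular parts and thereby in which partner molecule they recognise.

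Pcdhga11, the most highly expressed member of type A, had 20.4, 22.2, 20.9 and 17.5 CPM in HipR3, HipR4, HipR7 and HipR11, and 25.5, 24.9, 24.6 and 23.0 CPM in HipR5, HipR9, HipR10 and HipR16. Every DHEA library lay below every sesame oil library. The means were 20.3 ± 1.97 and 24.5 ± 1.06 CPM (SD, n = 4 each). The log2 fold change was -0.27 (SE 0.09, edgeR unadjusted p = 0.00703, Benjamini-Hochberg adjusted p = 0.339). An exact permutation test (two-sided) gave p = 0.0286, which is the smallest possible with 4 libraries in each group. Any gene without overlap gets this value, as did Pcdhga2, Pcdhga9 and Pcdhga4, so it adds nothing to the absence of overlap. The unadjusted p stayed under 0.05 when each of the 8 libraries was left out in turn, and without HipR3 and HipR4 the log2 fold change was -0.36.

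Pcdhga2 had 6.86, 6.03, 5.63 and 6.32 CPM in the DHEA libraries and 7.88, 8.57, 7.82 and 7.08 CPM in the sesame oil libraries. HipR7 was lowest and HipR9 highest. This was a log2 fold change of -0.33 (SE 0.13, edgeR unadjusted p = 0.0198, Benjamini-Hochberg adjusted p = 0.429). In the same edgeR test the unadjusted p was 0.0513 without HipR7 and 0.0644 without HipR9. Without HipR3 and HipR4 the log2 fold change was -0.40.

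Pcdhga9 had 6.62, 6.76, 5.08 and 6.08 CPM against 7.18, 8.21, 6.98 and 7.62 CPM. The groups were apart by the small gap between HipR4 and HipR10. Here the log2 fold change was -0.29 (SE 0.14, edgeR unadjusted p = 0.0504, Benjamini-Hochberg adjusted p = 0.531), and it was -0.43 without HipR3 and HipR4.

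Pcdhga4 went the other way, with 10.3, 8.39, 8.71 and 7.5 CPM in the DHEA libraries and 7.24, 6.996, 7.37 and 7.17 CPM in the sesame oil libraries. HipR3 was highest, and the sesame oil libraries varied little (SD 0.157 CPM). Its log2 fold change was 0.28 (SE 0.13, edgeR unadjusted p = 0.0442, Benjamini-Hochberg adjusted p = 0.529). The unadjusted p was under 0.05 in only 1 of the 8 edgeR fits with a library left out, while the log2 fold change stayed between 0.19, without HipR3, and 0.34, without HipR11. It was 0.16 without HipR3 and HipR4 (edgeR unadjusted p = 0.233).

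**Figure D4:**
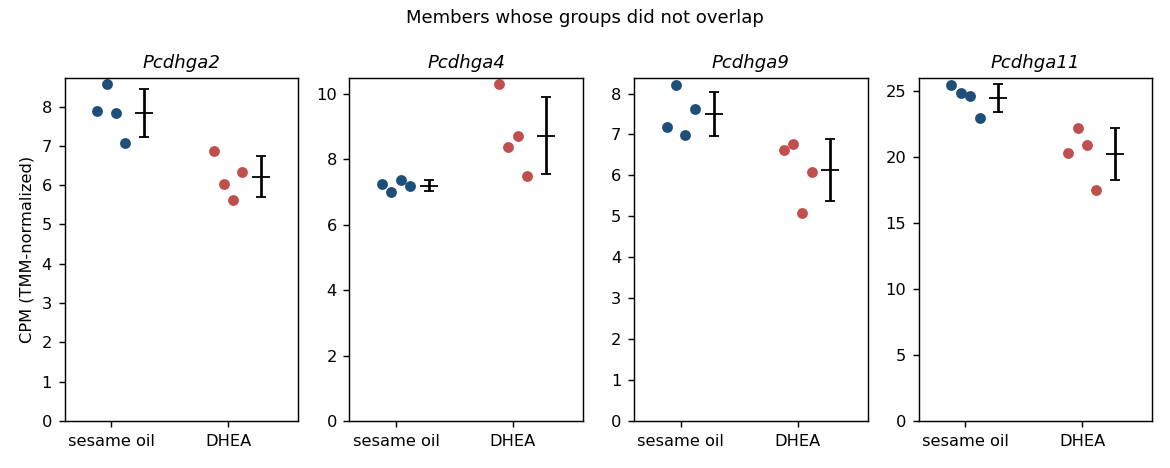
CPM (vertical axis, from 0) of the 4 clustered protocadherin genes whose groups did not overlap; each point is a library, and the bars to its right are the mean and SD of the 4 libraries. Pcdhga2, Pcdhga9 and Pcdhga11 are lower in all DHEA libraries, and Pcdhga4 is higher.

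In all 5 C-type members the groups overlapped. Pcdhgc3 had 65.0, 65.4, 59.0 and 67.3 CPM in the DHEA libraries and 61.5, 69.4, 60.2 and 62.8 CPM in the sesame oil libraries, a log2 fold change of 0.02 (SE 0.07). The sign of this value turned to -0.01 in limma-trend on FPKM. Pcdhgc5 had 76.9, 60.8, 70.8 and 69.4 CPM against 76.2, 71.5, 74.9 and 74.7 CPM, with HipR4 lowest and a log2 fold change of -0.10 (SE 0.07). Both genes took nearly the same part of the gamma counts in the groups. The share of Pcdhgc3 was 22.0% ± 1.83 in the DHEA libraries and 20.7% ± 1.04 in the sesame oil libraries, and that of Pcdhgc5 was 23.7% ± 1.33 and 24.3% ± 1.09 (SD, n = 4 each).

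Pcdhgc4 had 6.35, 5.64, 8.18 and 7.61 CPM in the DHEA libraries and 9.33, 9.25, 7.37 and 7.39 CPM in the sesame oil libraries. HipR3 and HipR4 were the lowest, and HipR7 and HipR11 lay among the sesame oil libraries. The log2 fold change was -0.26 (SE 0.15, edgeR unadjusted p = 0.0918, Benjamini-Hochberg adjusted p = 0.591), and it was -0.08 without HipR3 and HipR4.

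Pcdhac2 had 32.8, 24.9, 22.1 and 24.6 CPM against 25.6, 22.7, 24.4 and 26.7 CPM, with HipR3 above all the others. Its log2 fold change of 0.07 (SE 0.11) turned to -0.06 without HipR3. Pcdhac1 had 3.28, 2.50, 2.52 and 1.62 CPM against 2.51, 2.08, 1.63 and 2.03 CPM, a log2 fold change of 0.27 (SE 0.25) that became 0.00097 without HipR3 and HipR4. Pcdhac2 made up 54.0% ± 2.02 of the alpha counts in the DHEA libraries and 53.4% ± 1.254 in the sesame oil libraries (SD, n = 4 each).

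Among the alternate alpha members, Pcdha3 had the smallest p of its cluster. It had 1.32, 2.24, 2.52 and 2.27 CPM in the DHEA libraries and 2.93, 2.99, 2.9998 and 2.51 CPM in the sesame oil libraries. HipR3 was lowest, and the groups overlapped by HipR7 and HipR16. The log2 fold change was -0.45 (SE 0.23, edgeR unadjusted p = 0.0642, Benjamini-Hochberg adjusted p = 0.558), and -0.26 without HipR3 and HipR4. The more abundant Pcdha12 and Pcdha5 had log2 fold changes of -0.04 (SE 0.21) and 0.24 (SE 0.20), the latter 0.13 without HipR3 and 0.14 without HipR9. Pcdha12 ranged from 3.03 to 5.41 CPM with DHEA and from 3.62 to 5.89 CPM with sesame oil, and the sign of its difference turned with the library left out.

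In the beta cluster, Pcdhb22, its last gene, had the smallest p. It had 7.21, 5.25, 5.44 and 5.89 CPM in the DHEA libraries and 6.70, 8.03, 6.39 and 7.52 CPM in the sesame oil libraries. HipR3 lay among the sesame oil libraries, and the other 3 DHEA libraries lay below all of them. The log2 fold change was -0.27 (SE 0.15, edgeR unadjusted p = 0.0838, Benjamini-Hochberg adjusted p = 0.587), and -0.34 without HipR3 and HipR4. The most abundant beta members, Pcdhb17 and Pcdhb9, had log2 fold changes of 0.10 (SE 0.11) and 0.13 (SE 0.11). That of Pcdhb17 was 0.04 without HipR5, 0.07 without HipR3 and 0.03 without HipR3 and HipR4, and that of Pcdhb9 was 0.06 without HipR3 and 0.07 without HipR16. Pcdhb1 had 4, 2, 8 and 9 counts against 2, 1, 1 and 4 counts, too few to show a difference. Without HipR3 and HipR4 it met the thresholds on p and fold change, the only member to do so in any fit (edgeR log2 fold change 1.89, unadjusted p = 0.0474, Benjamini-Hochberg adjusted p = 0.627).

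Among the remaining named gamma genes, the log2 fold changes were -0.15 (SE 0.14) for Pcdhga3, -0.14 (SE 0.20) for Pcdhga1, -0.17 (SE 0.16) for Pcdhgb1, -0.17 (SE 0.20) for Pcdhgb4 and 0.06 (SE 0.11) for Pcdhgb6. Pcdhga1 had 4.85, 5.05, 8.63 and 4.65 CPM in the DHEA libraries and 5.37, 6.28, 5.44 and 8.38 CPM in the sesame oil libraries. One library in each group, HipR7 and HipR16, lay far above the other 3. Its log2 fold change was -0.39 without HipR7 (edgeR unadjusted p = 0.0388, Benjamini-Hochberg adjusted p = 0.338) and 0.02 without HipR16. The values of the other genes also moved with the library left out, to -0.03 for Pcdhga3 without HipR5 and -0.07 without HipR3 and HipR4, to -0.06 for Pcdhgb1 without HipR16, to -0.04 for Pcdhgb4 without HipR10 and to 0.16 for Pcdhgb6 without HipR10.

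As shares of the counts of their own cluster, a measure that does not depend on library size, 3 of the 55 members had groups without overlap, near the 5.04% of all genes without overlap in CPM. The 3 were gamma A members. The share of Pcdhga2 was 2.12% ± 0.163 in the DHEA libraries and 2.56% ± 0.138 in the sesame oil libraries. The share of Pcdhga4 was 2.98% ± 0.316 and 2.35% ± 0.0966, and that of Pcdhga6 was 3.35% ± 0.343 and 2.77% ± 0.282 (SD, n = 4 each). The shares of Pcdhga11 overlapped, with 6.94% ± 0.808 against 7.998% ± 0.229.

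The spread between mice of the same group was close to that of other genes of like mean count. The median within-group coefficient of variation was 13.8% over the members and 13.4% over those other genes. In the beta cluster it was 13.3% against 14.1%, and in the gamma cluster 11.4% against 12.7%. In the alpha cluster it was 28.8% against 22.1%, and 8 members lay above their like genes. The largest excess among the named genes was that of Pcdhga1, with 27.4% against 13.9%, and Pcdhac2 had 12.3% against 7.67%.

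The machinery that acts on the promoters of the locus was examined as a list of 33 genes. CTCF and cohesin bring a distant enhancer to a chosen promoter, DNA methylation silences the others, and Setdb1, a histone H3 lysine 9 methyltransferase, is required for the normal structure of the locus. At an unadjusted p under 0.05 (edgeR), the DHEA libraries had 3 of the 33 genes higher and 4 lower. In either direction, 9.31% of all genes tested had such a p, and 13.1% of those whose mean count reached 10. At an adjusted p under 0.05, 0 of the 33 genes passed, and their median log2 fold change was -0.03. The higher genes were the cohesin subunits Rad21 (0.14) and Stag2 (0.17) and the cohesin release factor Wapl (0.15). With each of the 8 libraries left out in turn, their unadjusted p was under 0.05 in 2, 7 and 4 edgeR fits. The lower genes were the cohesin subunit Smc1a (-0.17), the cohesin regulator Pds5a (-0.15), the maintenance methyltransferase Dnmt1 (-0.24) and Setdb1 (-0.23). The unadjusted p of these 4 was under 0.05 in 8, 7, 8 and 5 of those 8 edgeR fits. Cohesin genes thus stood on both sides. The count of 7 was 3 without HipR4, 4 without HipR3 or without HipR5, and 10 without HipR7 or without HipR11.

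Dnmt1 had the smallest p of the list, with 48.4 ± 2.37 CPM in the DHEA libraries and 57.3 ± 4.51 CPM in the sesame oil libraries (SD, n = 4 each) and no overlap (edgeR unadjusted p = 0.00336, Benjamini-Hochberg adjusted p = 0.293). Ctcf itself had a log2 fold change of -0.01, and Smchd1, a silencing factor of the locus, one of 0.03. Without HipR3 and HipR4, 4 genes of the list had an unadjusted p under 0.05, all lower, while Rad21 (0.03), Stag2 (0.09), Wapl (0.11) and Setdb1 (-0.06) no longer had one. Rad21, Stag2 and Wapl also lost it with an offset for GC content.

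Of 25 intracellular and membrane partners of these proteins, 2 were higher and 1 lower at an unadjusted p under 0.05. This share was near the 9.31% of all genes tested and the 13.1% of those whose mean count reached 10. The median log2 fold change was 0.04. The count of 3 was 1 without HipR3 or without HipR4, and 5 in limma-trend on FPKM. Wasf2, the actin regulator WAVE2, had 30.1 ± 1.90 against 24.3 ± 1.63 CPM (SD, n = 4 each) and no overlap, a log2 fold change of 0.31 (edgeR unadjusted p = 0.00149, Benjamini-Hochberg adjusted p = 0.263). Pdcd10, an adaptor protein, had a log2 fold change of 0.25 that became 0.07 without HipR3 and HipR4. The membrane scaffold gene Ank2 had one of -0.13, which became -0.09, and its unadjusted p was under 0.05 in 1 of the 8 edgeR fits with a library left out. Wasf1 (-0.03), Cyfip2 (-0.04) and the focal adhesion kinase genes Ptk2 (-0.08) and Ptk2b (-0.02), known to bind clustered protocadherins or their signalling complex, had no p under 0.05.

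The 12 protocadherins encoded outside the clusters were expressed at higher levels per gene. Their median was 10.1 FPKM (0.0849 to 27.3), they summed to 116.9 FPKM, and 2 of them exceeded Pcdhgc5. These were Pcdh1 and Pcdh20, the only 2 of the list with an unadjusted p under 0.05. Such a p was reached by 9.31% of all genes tested and by 13.1% of those whose mean count reached 10. Pcdh1 was lower in the DHEA libraries, with 257 ± 14.2 against 296 ± 18.9 CPM and a log2 fold change of -0.20 (edgeR unadjusted p = 0.00502, Benjamini-Hochberg adjusted p = 0.314). Pcdh20 was higher, with 146 ± 11.3 against 126 ± 10.4 CPM (SD, n = 4 each), a log2 fold change of 0.21 (edgeR unadjusted p = 0.00805, Benjamini-Hochberg adjusted p = 0.354) that became 0.11 without HipR3 and HipR4. The groups overlapped in both, and the median of the list was 0.04.

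Of 25 genes tested at the borders of the clusters and between them, Pcdh1 and Tmco6 were lower at an unadjusted p under 0.05 and 0 were higher. This share was near the 9.31% of all genes tested and below the 13.1% of those whose mean count reached 10. The median log2 fold change was -0.01. The count of 2 was 4 without HipR11 and 5 without HipR7. Tmco6 had 5.71 ± 0.590 against 7.84 ± 0.399 CPM (SD, n = 4 each) and no overlap, a log2 fold change of -0.46 (edgeR unadjusted p = 0.00296, Benjamini-Hochberg adjusted p = 0.293). Taf7, which lies between the beta and the gamma cluster, had a log2 fold change of 0.11, and Diaph1, which follows the gamma cluster, one of 0.03.

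Oligodendrocyte markers, and some markers of other cells, differed between the groups. All 10 oligodendrocyte markers were higher in the DHEA libraries at an unadjusted p under 0.05 (edgeR). The share higher at that p was 4.82% of all genes tested and 6.85% of those whose mean count reached 10. The oligodendrocyte markers had a median log2 fold change of 0.37 and none at 0 counts. Their summed level, led by Mbp, a myelin protein, was 6606, 8339, 6531 and 6743 CPM in the DHEA libraries and 5301, 6345, 5270 and 4458 CPM in the sesame oil libraries, without overlap. The same held for 7 of 10 astrocyte markers (median 0.18, most abundant Slc1a2), whose sums overlapped. For oligodendrocyte precursors it held for 2 of 7 (median 0.13, most abundant Olig1), and for endothelium for 3 of 9 (median 0.03, most abundant Flt1). The precursor sums did not overlap, with 320 ± 13.0 CPM in the DHEA libraries against 284 ± 11.3 CPM (SD, n = 4 each), while the endothelial sums overlapped. Of 10 neuronal markers, 0 were higher and 2 lower, Rbfox3 (-0.16) and Nefm (-0.18), with a median of -0.03 and overlapping sums of 6899 ± 324 and 7045 ± 299.5 CPM (SD, n = 4 each). The choroid plexus markers, led by Ttr, had 0 of 10 genes with an unadjusted p under 0.05 in edgeR, though all 10 were above 0 with a median log2 fold change of 0.45. Their summed level ran from 104 CPM in HipR4 to 4694 CPM in HipR3 among the DHEA libraries and from 539 to 3263 CPM among the sesame oil libraries. The meningeal markers had 0 of 8 genes past that threshold (median 0.06), and the thalamic markers had 1 higher and 1 lower (median 0.16). Without HipR3 and HipR4, the edgeR test gave 6 of 10 oligodendrocyte markers (median 0.29), 4 of 10 astrocyte markers (median 0.15), 2 of 7 precursor markers (median 0.08), 2 of 9 endothelial markers (median -0.05) and 2 of 10 choroid plexus markers (median 0.66) higher at an unadjusted p under 0.05, beside 3.99% of all genes. In the same fit 3 of 10 neuronal markers (median -0.11), 2 of 8 meningeal markers (median -0.27) and 1 of 9 endothelial markers were lower. Of 8 thalamic markers, 1 was higher (median 0.11). Among the remaining libraries the neuronal sums no longer overlapped, with 6658 CPM in HipR7 and 6615 CPM in HipR11 against 6732 to 7438 CPM. The astrocyte sums no longer overlapped either, with the DHEA libraries higher. The part of cell composition in the values of the clustered protocadherins was not tested.

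The libraries also differed in how counts depended on GC content. The correlation of a gene's deviation with the GC content of its transcript was between -0.09 and -0.0017 in the DHEA libraries and between 0.04 and 0.11 in the sesame oil libraries. Transcripts had a median GC content of 47.3% in the alpha, 46.0% in the beta and 53.1% in the gamma cluster, against 49.7% over the genes whose mean count reached 10. With an offset for this trend, the median log2 fold changes of the clusters were 0.01, 0.04 and -0.13. Those of Pcdhga11, Pcdhga2, Pcdhga9 and Pcdhga4 were then -0.26, -0.32, -0.28 and 0.29.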

How the data were processed

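Poly(A) RNA of 4 libraries labelled DHEA and 4 labelled sesame oil was analysed. The submitters' processing notes name fastp, HISAT2, HTSeq and GRCm39. Versions, the annotation and the strand setting of the counting are not given in the sources used here. Without strand, reads of genes on opposite strands cannot be told apart. Both tables deposited by the authors give 1 row per gene, as unnormalized counts of reads and as FPKM. Genes with FPKM in at least 2 libraries numbered 25234. For 25234 of them the deposited FPKM equalled counts divided by the total and by 1 length per gene, within 0.1%. FPKM served for levels between genes, counts for all tests.

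The 27612 genes with at least 1 count were tested with edgeR 4.0.16 in R 4.3.3 (TMM normalization, quasi-likelihood test, prior count 0.125, Benjamini-Hochberg adjustment over all of them). The SE was derived from each fold change and its F statistic. Named genes were also given an exact permutation test (two-sided, 70 allocations). No test was run over the members as a list or on cluster sums. Nothing in the labels states a batch or pairing. P-values measure the spread between the 8 libraries, whose mice differed by number in the labels. No pair of libraries of a group agreed within sampling noise (chi-square per degree of freedom at least 7.48).

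Alternatives to these settings were RLE normalization, DESeq2 1.42.0, a minimum of 10 counts, filterByExpr, robust moderation, a prior count of 1, limma-trend (limma 3.58.1) on log2(FPKM + 1) and log2(FPKM + 0.1), a lowess offset for GC content (span 0.3), thinning to the smallest total and leaving out each library. Leaving out HipR3 and HipR4 together was added after the data were seen. Genes named were the C-type members, the 2 highest and the lowest member of the alternate alpha, beta, gamma A and gamma B groups by FPKM, every member with an unadjusted p under 0.05 or groups without overlap, and the smallest p in each cluster. Of the other lists, genes with an unadjusted p under 0.05 were named. Ctcf, Smchd1, Wasf1, Cyfip2, Ptk2, Ptk2b, Taf7, Diaph1 and Pcdhga6 were named after their values were seen. The members and all lists were chosen with earlier results of these data known. First exons, shared windows and GC content came from GENCODE vM21 on GRCm38, another build than that of the counts, so no coordinates are given. The result of 1 further marker list is not reported here. The scripts were tested on simulated data. The figures were drawn with matplotlib 3.10.9.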

Additional observations from a re-analysis of the deposited data

Results flagged for a closer look

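In the 112 groups of 4 libraries examined, the gap of the highest or lowest library to its nearest neighbour, divided by the range of the group, exceeded Dixon's critical value for 4 samples in 6, where chance gives about 5.6.

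Pcdhga1 in HipR7 had 8.63 CPM against 4.65 to 5.05 CPM in the other libraries labelled DHEA (gap 0.900 of the range). Pcdhgb1 in HipR16 had 9.17 CPM against 6.84 to 6.91 CPM in the other sesame oil libraries (0.970). Pcdha3 in HipR16 had 2.51 CPM against 2.93 to 2.9998 CPM in its group (0.854). Pcdha6 had its only count in HipR4 (1.0). Outside the clusters, Pdcd10 in HipR5 had 35.3 CPM against 29.6 to 30.5 CPM in its group (0.831). The summed oligodendrocyte markers in HipR4 were 8339 CPM against 6531 to 6743 CPM in the other libraries labelled DHEA (0.883).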

How the results depend on the processing

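The number of members with an unadjusted p under 0.05 was 3. It was 5 with DESeq2, 5 without HipR3 and HipR4, 3 or 4 in the other 9 settings, and 1 to 4 when each library was left out, with 1 without HipR9. Pcdhga11 was among them in every fit. Without HipR7 they were Pcdha3, Pcdhga1, Pcdhga11 and Pcdhgc4. The number with an adjusted p under 0.05 was 0 in all fits, and the number past the study's thresholds was 0 except without HipR3 and HipR4, where it was 1. Median log2 fold changes with each library left out ran from -0.03 to 0.13 (alpha), from 0.03 to 0.13 (beta) and from -0.20 to -0.07 (gamma). With a minimum of 10 counts the alpha median was -0.05. In limma-trend on log2(FPKM + 1) the alpha median was -0.0060 and the beta median 0.03. Signs turned for genes near 0. Pcdha12 ran from -0.17 to 0.14 and Pcdhac2 from -0.0598 to 0.14 with each library left out, and Pcdhga1 ran from -0.39 to 0.0160. Pcdhgc3 ran from -0.00858 to 0.0614, and was -0.01 in limma-trend with either pseudocount (-0.0111 with 0.1 and -0.0105 with 1). Without HipR3 and HipR4, Pcdhac2 was -0.10, Pcdhga1 0.0545 and Pcdhgc3 -0.0136. The cause was not tested. Adjusted p-values of Wasf2 and Tmco6 reached 0.0447 and 0.0400 in 1 fit or more. The methods of the behaviour tests mention littermates as controls, but the labels name no litter. No paired analysis was possible because the groups share no replicate numbers, so any shared litter is not accounted for. Counting error limits Pcdha6, Pcdha8 and Pcdhb1, which had mean counts under 10.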
